A study of Bos taurus with 20 samples.

Results

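The Hedgehog ligands *IHH* and *DHH*, the receptors and binding proteins *PTCH1*, *SMO*, and *HHIP*, and the transcription factors *GLI1*, *GLI2*, and *GLI3* with their inhibitor *SUFU* were followed across the cells of the bovine ovarian follicle. These 9 genes were taken by symbol from the probe annotation of a customized 1-colour bovine Agilent array, where they were covered by 22 of the 61325 non-control probes and were 9 of the 22551 genes or transcripts measured. The 20 arrays held 4 samples of each of 5 groups, namely theca (TH), granulosa (GC), cumulus (CC), immature oocytes (OO), and cumulus taken 4 h into in vitro maturation (CC-IVM). All came from antral follicles of 3 to 6 mm on slaughterhouse ovaries, with no age or breed of the cows in the labels, and 200 ng of RNA was labelled per array. GC and cumulus-oocyte complexes were collected by puncturing the follicles, and TH were scraped from the follicle walls, so the TH samples could hold the other cells of the wall. TH, GC, CC, and OO are labelled immature and had no in vitro maturation. CC-IVM were detached from the oocytes after the 4 h of maturation.

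Hedgehog ligands are secreted proteins. In a cell that receives them, the ligand binds the membrane protein PTCH1, which otherwise keeps SMO inactive, and active SMO acts through the primary cilium to turn the GLI factors into activators of transcription. *GLI1*, *PTCH1*, and *HHIP* are themselves classical targets of the pathway, so their transcripts are commonly used to read whether a cell is responding. In the ovary, the granulosa layer is known as a source of IHH and DHH, and the theca as a tissue that responds to them.

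The 60-base probes showed which transcripts were measured, and their last 30 bases are printed here for genes whose results turn on them. All were written 5′ to 3′ from the array files, and capitals mark the hexamer AATAAA, the common polyadenylation signal, searched on the printed strand only.
IHH probe A: tggtcttttcttccttttgtAATAAAaatt
IHH probe B: ttggtcttttcttccttttgtAATAAAaat
GLI1 probe A: ggaattttataatgacactgtttcctgata
GLI1 probe B: ttataatgacactgtttcctgatAATAAAg
HHIP probe A: gtgggcaatggtataaaattgtaatctgca
HHIP probe B: tggttactctagcttaatttcaagatcgtt
SUFU probe A: atcgcggctgtctatctccagtgtcctgtt
SUFU probe B: tcccacagttgcatcacaacggcgtgtctg
PTCH1 probe A: tggtgttggtgtggatgatgtctttcttct
PTCH1 probe B: tccttttgaggacaggaccggggagtgcct
DHH probe A: gtgatttgcctccagattgggggagggtct
DHH probe B: ggcatgcattggtactctcggttcctctat

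The 2 *IHH* probes were nearly the same sequence, shifted by a base and sharing 59 of 60 bases, and the *GLI1* probes shared 54 and the *GLI3* probes 58. The probes of each of these genes therefore read the same site. The probes of *HHIP*, *SUFU*, *PTCH1*, and *GLI2* shared 0 bases, those of *SMO* 2, and those of *DHH* 5, so each of these genes was read at separate sites. Counted by spot, the hexamer occurred in 5 of the 22 probes (22.7%) and in 8.35% of all 61325 probes. The 5 were both *IHH* probes, probe B of *GLI1* on its 2 spots, and probe B of *PTCH1* before its last 30 bases. Each sequence of *GLI1* and of *DHH* lay on 2 spots, so the share counts repeated sites. None of the 22 shared a stretch of 20 bases with a probe of another gene.

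On the UMD 3.1 assembly, the array annotation placed the transcript of *IHH* at chr2:107722668-107728939, *DHH* at chr5:30894556-30899509, *PTCH1* at chr8:83551682-83581560, *SMO* at chr4:93922581-93946896, and *HHIP* at chr17:13627444-13736747. It placed *GLI1* at chr5:56321395-56331773, *GLI2* at chr2:72977209-73168370, *GLI3* at chr4:79444243-79758476, and *SUFU* at chr26:23452980-23517250. The exon or untranslated region under each probe was not analysed here.

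The share of probes well above background ran from 49.3%, on OO replicate 2, to 68.8%, and no spot was saturated. The scanner intensity at the 75th percentile ran from 284 to 1101 on the somatic arrays and from 1521 to 2891 on the OO arrays. Levels are given below as log2 of the background-subtracted signal minus that percentile of the same array, so a value of 0 means a signal brighter than that of 75% of the probes. A gene was called different at an adjusted p under 0.05 in a limma fit across all genes. On this scale the median difference over all genes was -0.22 for TH minus GC, 0.00 for TH minus CC, 0.16 for GC minus CC, -0.40 for OO minus CC, and 0.37 for CC-IVM minus CC (-0.42 for OO minus TH and -0.62 for OO minus GC). Replicates 1 and 2 of TH, GC, CC, and OO lay on 1 slide and replicates 3 and 4 on another, while the 4 CC-IVM arrays had a slide of their own. The methods call the 4 samples of a group biological replicates, but nothing says whether they came from separate animals, so p-values measure the spread between these samples, which may in part be technical.

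The labels held up against defining markers of the cell types in the comparisons given here. *STAR*, of the theca list, was higher in OO (3.32 to 3.53) than in TH (1.91 to 2.57), while the other theca markers were lower in OO than in TH. All 5 theca markers (*CYP17A1*, *INSL3*, *COL1A1*, *COL1A2*, and *STAR*) were called higher in TH than in GC and in CC, all 4 granulosa and cumulus markers (*FSHR*, *CYP19A1*, *AMH*, and *INHBA*) were called lower in TH than in both, and all 6 oocyte markers were called higher in OO than in CC. Markers of other wall cells were also higher in TH than in GC, in 4 of 5 genes of endothelium, 5 of 5 of smooth muscle and pericytes, and 3 of 5 of leukocytes, with 1 of 4 Schwann cell markers and 0 of 2 haemoglobin genes. The summed level of the smooth muscle and pericyte list was 7.56 to 7.74 in TH, 2.92 to 4.48 in GC, and 0.93 to 1.78 in CC, and that of the endothelial list was 1.33 to 2.49, -2.98 to -1.52, and -3.29 to -2.93. The part of these wall cells in the TH signals below was not tested. These were bulk samples, in which fewer cells of a type and less RNA per cell cannot be told apart.

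Of the 9 genes, 8 were well above background on all 4 TH arrays, 6 on all GC arrays, 6 on all CC arrays, 2 on all CC-IVM arrays, and 4 on all OO arrays. The CC-IVM arrays were dimmer than the CC arrays (75th percentile 284 to 396 against 536 to 657). Their lowest detectable signal was also higher, at -5.12 to -4.59 against -5.73 to -5.26, so the counts of CC and CC-IVM are not directly comparable. On at least 3 OO arrays there were 7, since *DHH*, *SMO*, and *GLI1* were missed only on OO replicate 2, whose lowest detectable signal was -4.02 against -6.84 to -5.91 on the other OO arrays. The F-test over TH, GC, CC, and OO called 7 of the 9, all but *DHH* and *GLI2*, where it called 71.3% of all genes. The ligand *IHH* was highest in the cumulus and granulosa samples and lower in the theca. The response genes *GLI1* and *HHIP* were higher in the theca than in GC and CC, where *HHIP* was undetected. These orders compare groups for each gene, and within TH the mean of *IHH* (-1.17) was above that of *HHIP* (-3.51). *HHIP* was higher still in OO, and *PTCH1*, also a response gene, overlapped between TH, GC, and CC. The plot of each gene on each array shows these levels.

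**Figure D1:**
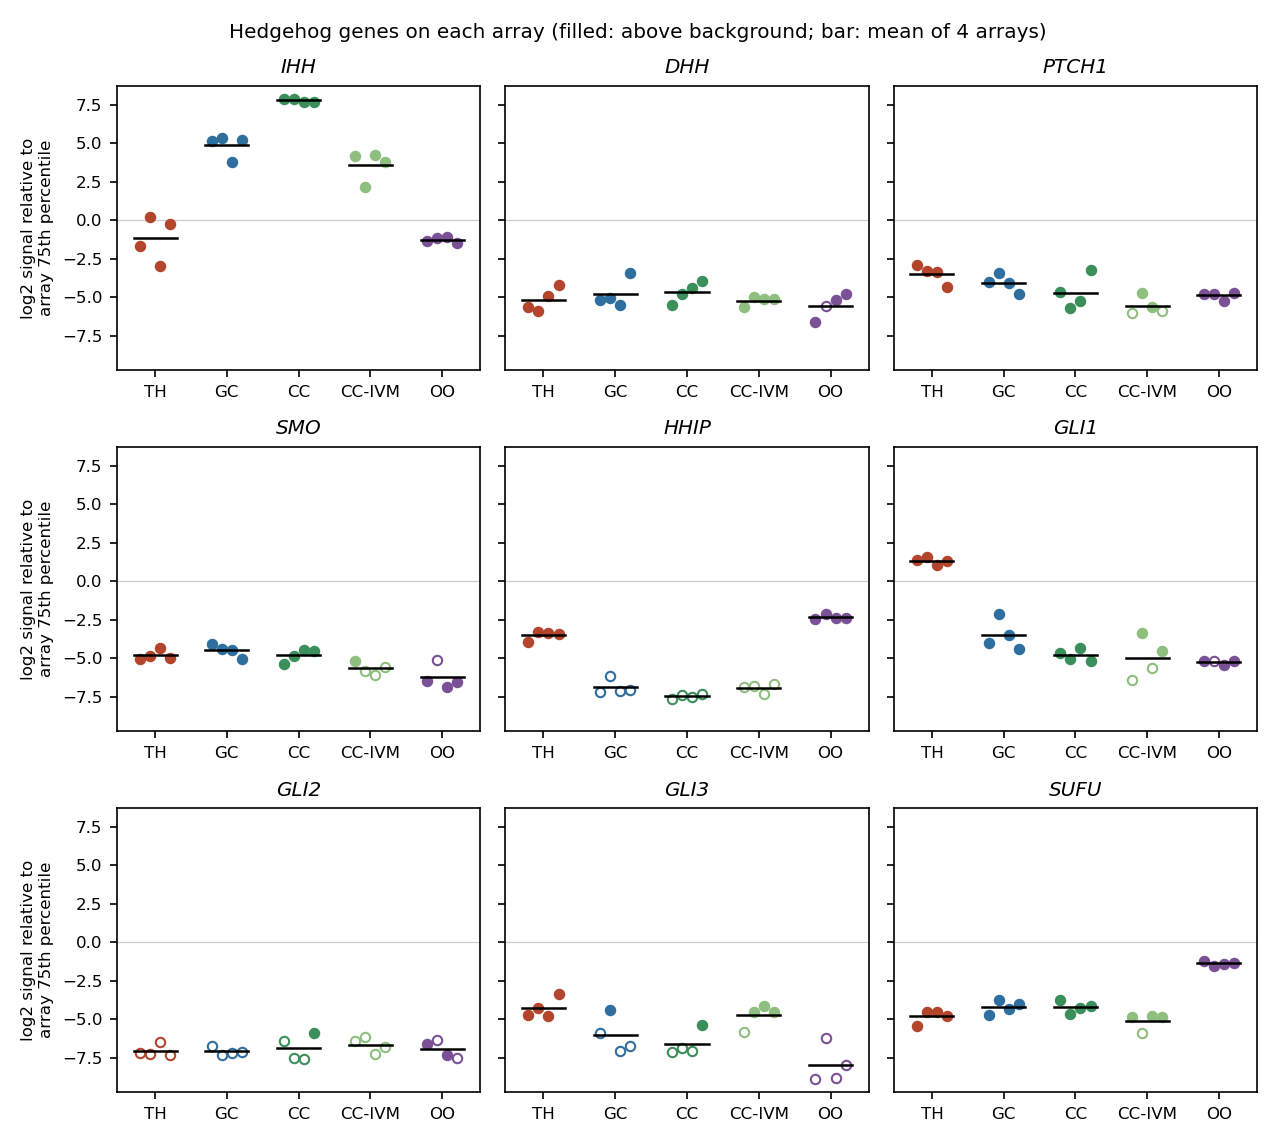
Each panel gives 1 Hedgehog gene, with the log2 signal relative to the array's 75th percentile on the vertical axis and the 5 sample groups on the horizontal axis. Each point is 1 array (filled where at least 1 probe of the gene was well above background), and the bar is the mean of 4 arrays. *IHH* lies between 7.65 and 7.86 on the CC arrays and between -2.97 and 0.23 on the TH arrays, and *GLI1* lies between 1.04 and 1.57 on the TH arrays and at or below -2.16 on every other array.

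*IHH*, the Indian hedgehog ligand, was highest in CC, at 7.86, 7.86, 7.68, and 7.65 in replicates 1 to 4. In GC it was 5.14, 5.30, 3.76, and 5.21, and in TH it was -1.66, 0.23, -2.97, and -0.28. The 3 groups did not overlap, and the order from CC to GC to TH held on every array. GC minus CC was -2.91 (SE 0.53; limma, adjusted p = 0.0024), which is 7.51-fold lower. TH minus GC was -6.02 (SE 0.53, adjusted p = 6.7e-07), or 65.0-fold lower, and TH minus CC was -8.93 (adjusted p = 6.6e-09), or 488-fold lower. Without TH replicate 3, the lowest array, these were -5.42 and -8.33. Within a single slide, with 2 arrays per group, GC minus CC was -2.64 on the first and -3.18 on the second, and neither passed the threshold (adjusted p = 0.12 and 0.16).

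*IHH* was well above background on all 4 TH arrays and spread more there (SD 1.44) than in GC (SD 0.73) or CC (SD 0.11). The 2 TH arrays with the higher *IHH*, replicates 2 and 4, were also the 2 with the higher *FSHR*, the receptor that marks granulosa cells. *FSHR* was -3.94, -2.74, -3.85, and -2.62 in TH replicates 1 to 4, against 1.50 to 2.47 in GC. The summed level of the 4 granulosa and cumulus markers, carried mainly by *INHBA* and *AMH*, was 4.73, 4.44, 4.18, and 5.06 on the same arrays and did not follow that order. The part of granulosa cells in the *IHH* signal of TH was not tested. In OO, *IHH* was -1.33, -1.17, -1.08, and -1.47, inside the range of TH and far below CC (OO minus CC -9.03, adjusted p = 4.5e-10).

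*DHH*, the desert hedgehog ligand, was called in none of the pairs of groups by its gene level, the median over 4 spots. Its levels were -5.91 to -4.24 in TH, -5.51 to -3.42 in GC, and -5.49 to -3.96 in CC. The groups overlapped throughout, and the F-test gave an adjusted p of 0.36. The 2 probe sequences, each on 2 spots, did not run together (r = -0.02 over the 20 arrays). Probe A was well above background on at most 2 arrays of any group, whereas probe B was above background on all TH, GC, and CC arrays.

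By probe B alone, *DHH* followed the direction of *IHH*. In the fit over all probes, its 2 spots gave -1.26 and -1.13 for TH minus CC (adjusted p = 0.011 and 0.043) and -1.44 and -1.76 for OO minus CC (adjusted p = 0.0017 and 0.0011). For TH minus GC they gave -0.88 and -1.07, with adjusted p of 0.079 and 0.064. The gene level was thus taken over a sequence that was measured and one that was mostly not above background, as the plot of the single probes shows. With only the probes above background, the gene was called lower in TH than in GC (-0.98, adjusted p = 0.024) and in CC (-1.19, adjusted p = 0.0062).

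**Figure D2:**
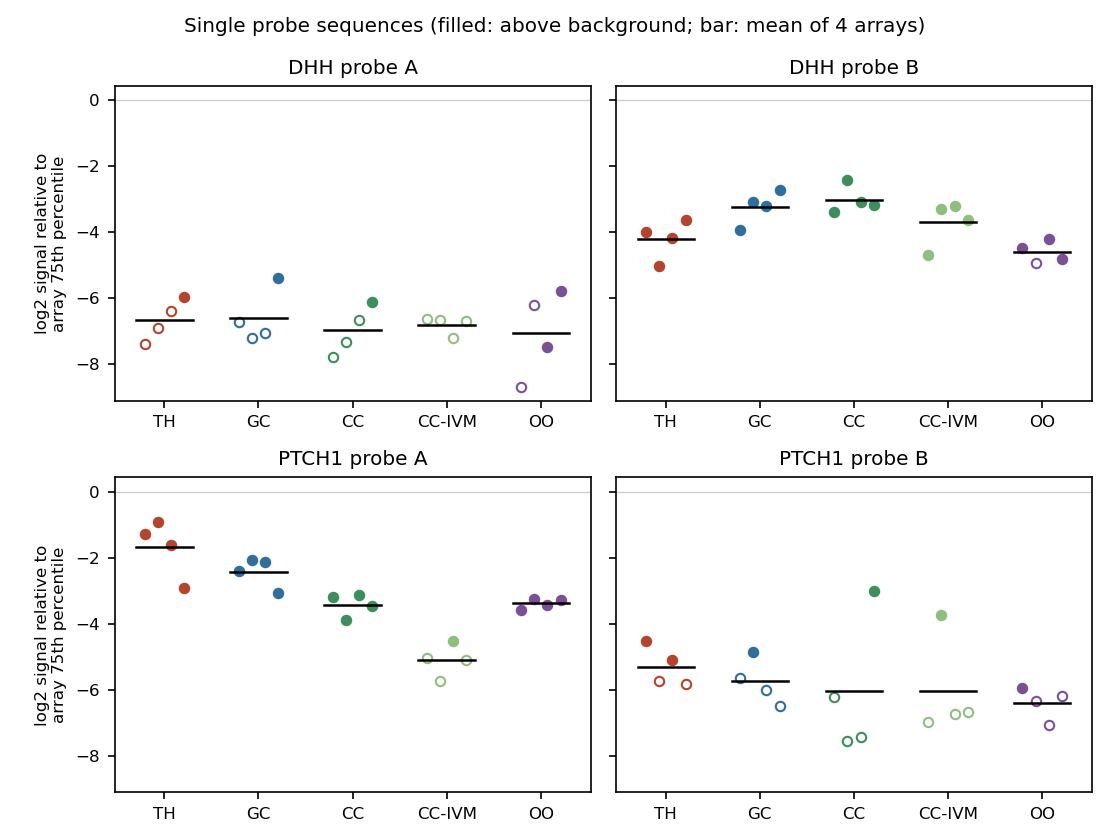
Levels of the 2 probe sequences of *DHH* (upper row) and of *PTCH1* (lower row) on each array, as log2 signal relative to the array's 75th percentile, for the 5 groups. Each point is 1 array (mean of the spots of that sequence, filled where above background) and the bar is the mean of 4 arrays. Filled points are the rule for DHH probe B and PTCH1 probe A and the exception for the other sequence of each gene.

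Against GC, 3 of the 9 genes were called in TH, 2 higher (*GLI1* and *HHIP*) and 1 lower (*IHH*). Over all genes this comparison called 26.3%, with 11.8% higher and 14.5% lower. Against CC, 5 were called in TH, 4 higher (*GLI1*, *HHIP*, *GLI3*, and *PTCH1*) and 1 lower (*IHH*), where 31.8% of all genes were called, 14.4% higher and 17.4% lower. The median difference of the 9 genes was 0.02 for TH minus GC and -0.01 for TH minus CC. Between GC and CC, 2 were called, *GLI1* higher in GC and *IHH* lower, where 9.88% of all genes were, 4.61% higher and 5.28% lower.

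**Figure D3:**
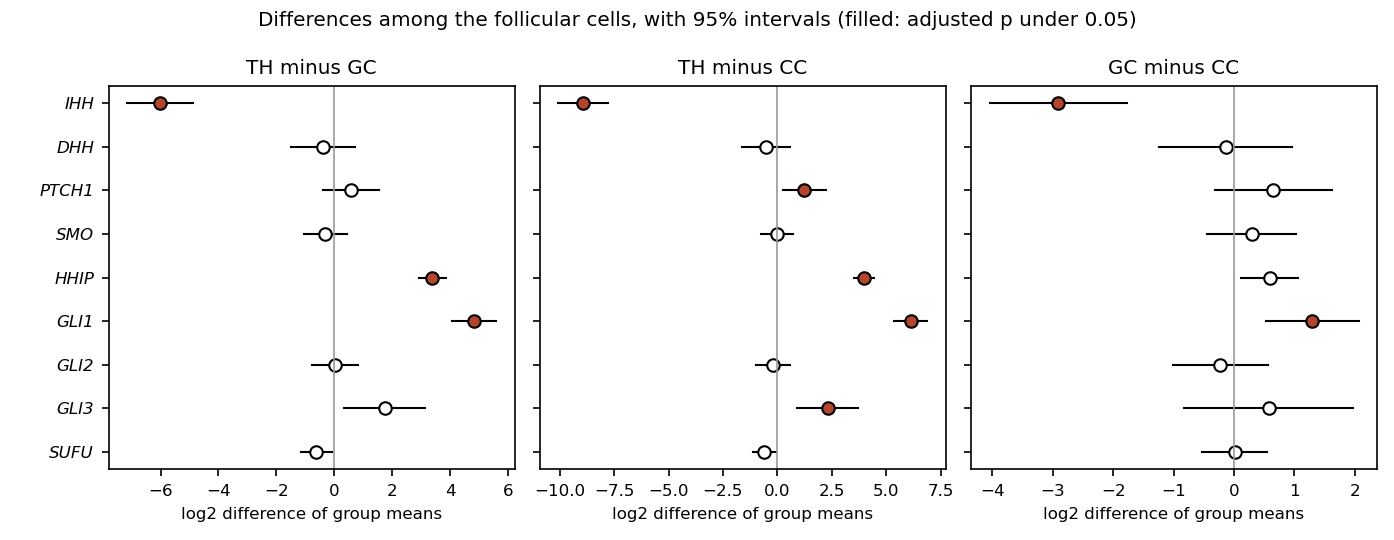
Differences of group means of the 9 Hedgehog genes for TH minus GC, TH minus CC, and GC minus CC, as log2 values on the horizontal axis with 95% confidence intervals. Filled points had an adjusted p under 0.05. *IHH* lies at -6.02 and -8.93 in the first 2 panels, and *GLI1* at 4.83 and 6.12.

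*GLI1*, the GLI factor that is both an effector and a target of the pathway, was 1.35, 1.57, 1.04, and 1.30 in TH. In GC it was -4.00, -2.16, -3.47, and -4.41, and in CC it was -4.65, -5.04, -4.37, and -5.16. Every TH array stood above every array of the other groups, the lowest TH value being 1.04 and the highest value elsewhere -2.16. The difference was 4.83 from GC (SE 0.36, adjusted p = 1.3e-07), or 28.4-fold, and 6.12 from CC (SE 0.36, adjusted p = 5.7e-09), or 69.6-fold. It was called in the same direction on each slide and in each alternative tried, at its smallest with normexp (3.38 from GC and 4.02 from CC).

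*GLI1* was also called higher in GC than in CC, by 1.29 (SE 0.36, adjusted p = 0.032), although the 2 groups overlapped. The call stayed without the highest array, GC replicate 2 (0.84, adjusted p = 0.046), and was lost within each slide and without GC replicate 3 (1.28) or CC replicate 1 (1.35), 2 (1.22), or 4 (1.17). It was also lost with normexp, the deposited table, the mean over probes, the brightest probe, and all 20 arrays in 1 fit. In all, it was kept in 21 of 32 alternatives, with differences from 0.54 to 1.76. The summed theca list was 4.70, 6.65, 6.46, and 5.13 in GC replicates 1 to 4 and 4.61 to 4.98 in CC. In the same GC arrays the summed smooth muscle and pericyte list was 2.99, 4.48, 4.36, and 2.92, the endothelial list -2.26, -1.52, -2.03, and -2.98, and the leukocyte list -2.14, -1.46, -1.07, and 0.03. Replicates 2 and 3 were thus the highest for the first 3 lists, as for *GLI1*, and replicate 4 for the leukocyte list. Within the theca list, *STAR* (-2.35, -0.09, 0.97, and 1.49) was also highest in replicate 4. The part of these cells in the *GLI1* signal of GC was not tested.

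*HHIP*, which encodes a membrane protein that binds Hedgehog ligands and limits their action, was well above background on all 4 TH arrays and on none of the GC, CC, and CC-IVM arrays. Its levels in TH were -3.95, -3.32, -3.36, and -3.41, and the highest GC value was -6.19. For a group with no array above background only a bound holds, and it was computed against the higher of the lowest detectable signal and the measured value on each dim array. By this bound *HHIP* was at least 2.88-fold higher in TH than in GC (fitted means -3.51 and -6.90, adjusted p = 3.3e-08) and at least 3.74-fold higher than in CC (adjusted p = 3.1e-09). These bounds hold for the scaling used here. With normexp background correction the fitted differences were smaller, 0.58 from GC and 0.94 from CC, and still called. Both probes, which share no base, gave the same direction (3.09 and 3.68 for TH minus GC).

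*PTCH1*, the receptor of the ligands, was -2.90, -3.32, -3.35, and -4.37 in TH. It was -4.02, -3.45, -4.07, and -4.78 in GC and -4.69, -5.72, -5.28, and -3.23 in CC, so the 3 groups overlapped. TH minus CC was 1.24 (SE 0.45, adjusted p = 0.049), at the edge of the threshold. The call was lost in 12 of the 16 fits that left out 1 array (0.91 to 1.74 over the 16), and it stayed without TH replicate 4, GC replicates 2 and 4, or CC replicate 4. The F-test call of *PTCH1* (adjusted p = 0.041) was lost without any 1 of TH replicates 1, 2, and 3, GC and CC replicates 1 and 3, and OO replicates 1, 3, and 4. TH minus GC was 0.59 with a 95% interval from -0.38 to 1.56 (adjusted p = 0.41).

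The 2 sequences of *PTCH1* differed here too. Probe A was well above background on all TH, GC, CC, and OO arrays, with means of -1.68 in TH, -2.42 in GC, and -3.42 in CC, and was called higher in TH than in CC by 1.74 (adjusted p = 0.0016). Probe B was above background on 2 TH arrays and on 1 array of each other group, and for TH minus CC gave 0.75 (adjusted p = 0.57). The high gene level of CC replicate 4 came from probe B, which was -2.99 there and at or below -6.21 on the other CC arrays. A further transcript on the array was matched to *PTCH1* only by its accession and is not among the 9 genes. It was above background on 2 TH arrays and 1 CC-IVM array, and on no GC, CC, or OO array. In limma it was called higher in TH than in CC (adjusted p = 0.0020, no overlap) and than in OO (adjusted p = 0.0012), but not than in GC (adjusted p = 0.19). As bounds these were at least 1.00-fold from CC and at least 1.41-fold from OO.

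*SMO*, the membrane protein that PTCH1 holds inactive, was called between no pair of TH, GC, and CC. Its levels were -5.04 to -4.31 in TH, -5.03 to -4.11 in GC, and -5.37 to -4.44 in CC. The 95% interval of the difference was -0.75 to 0.72 for TH minus CC and -1.04 to 0.43 for TH minus GC. *SMO* was above background on all 12 of these arrays, by probe B in each case and by probe A on 3 of them.

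*GLI3*, which is known chiefly as the repressor form of the GLI factors, was -4.73, -4.27, -4.77, and -3.38 in TH and above background on all 4. In GC it was -5.92, -4.39, -7.07, and -6.75 and in CC -7.10, -6.90, -7.05, and -5.37, above background on 1 array of each, the highest. The difference from CC was 2.32 (SE 0.66, adjusted p = 0.013), and the groups did not overlap. The call was lost within each slide, where the difference was 2.50 and 2.14, with the brightest probe only, and with normexp background correction (0.42). The difference from GC was 1.75 (SE 0.66, adjusted p = 0.065). With the replicate number as a block over the TH, GC, CC, and OO arrays, the value passed the threshold (adjusted p = 0.033). It also passed without GC replicate 2 (2.29, adjusted p = 0.015) or OO replicate 2 (1.75, adjusted p = 0.026). *GLI3* itself did not keep the same order by number, being highest in TH replicate 4 and in GC replicate 2.

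*GLI2*, the main activator among the GLI factors, was not well above background on any TH, GC, or CC-IVM array. It was above background on 1 CC and 2 OO arrays, and nothing is given about its order between groups. *SUFU*, which holds GLI proteins in the cytoplasm, was -5.41 to -4.52 in TH, -4.70 to -3.74 in GC, and -4.68 to -3.77 in CC, above background on all of them. The interval of TH minus GC was -1.15 to -0.08, with an adjusted p of 0.088 after correction over all genes.

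Against CC, *HHIP* and *SUFU* were higher in the oocyte and *IHH* and *SMO* were lower. Within OO itself the mean of *IHH* (-1.26) was above those of *SUFU* (-1.38) and *HHIP* (-2.34). These 4 of the 9 genes were called in OO minus CC, 2 in each direction, where 63.7% of all genes were called, 31.8% higher and 32.0% lower. Against TH, 6 were called (2 higher, 4 lower), where 64.6% of all genes were, 32.5% higher and 32.1% lower. Against GC also 6 were called (2 higher, 4 lower), where 68.6% of all genes were, 30.7% higher and 37.9% lower.

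*SUFU* was -1.21, -1.54, -1.40, and -1.39 in OO, above every somatic array, the highest of which was -3.74. The difference was 2.83 from CC (SE 0.25, adjusted p = 6.0e-08), or 7.09-fold, 3.43 from TH, and 2.81 from GC, and with normexp it was 1.50, 1.67, and 1.26. *HHIP* was -2.48, -2.13, -2.39, and -2.37 in OO, at least 8.40-fold higher than in CC (adjusted p = 1.0e-11) and at least 6.46-fold higher than in GC, with fitted differences of 1.35 and 0.98 under normexp. OO also exceeded TH for *HHIP*, by 1.17 (SE 0.22, adjusted p = 0.00019), with no overlap. The levels of *HHIP* thus ran from OO to TH to the other groups, of which none was above background.

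*GLI1* was -5.19, -5.19, -5.42, and -5.16 in OO, lower than in TH (OO minus TH -6.56, adjusted p = 1.9e-10) and in GC (OO minus GC -1.73, adjusted p = 5.2e-04) and not called against CC (adjusted p = 0.30). *SMO* was lower in OO than in CC (-1.46, SE 0.34, adjusted p = 0.0015), though not called within the first slide alone (-0.69). *PTCH1* was lower in OO than in TH (-1.40, adjusted p = 0.013), and within the second slide it gave -1.13 without a call. *GLI3* was well above background on no OO array and at least 3.07-fold lower there than in TH (adjusted p = 1.2e-04).

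After 4 h of maturation, *IHH* had fallen in the cumulus from 7.65 to 7.86 in CC to 4.19, 2.15, 4.25, and 3.76 in CC-IVM. The groups were far apart, and the difference was -4.18 (SE 0.42, adjusted p = 8.1e-05), or 18.1-fold lower. It was called without any 1 of the 8 arrays, from -4.40 to -3.70, and in every alternative. *IHH* was the member with the largest change, and it remained well above background on all 4 arrays. *FSHR* was 2.04 to 2.42 in CC and 2.07, -0.12, 1.10, and 1.12 in CC-IVM, where replicate 1 stayed inside the CC range. CC-IVM replicate 2 was the lowest array for both *IHH* and *FSHR*, and the order of the other arrays differed. Of the 4 granulosa and cumulus markers, *FSHR*, *CYP19A1* (-1.26), and *AMH* (-1.04) were called lower in CC-IVM and *INHBA* (1.07) higher, and their summed level, carried mainly by *INHBA*, was 8.57 to 8.62 in CC and 9.29 to 9.59 in CC-IVM. Of the 6 oocyte markers, 4 were called lower and none higher (summed level -0.83 to 1.59 in CC and -2.64 to -0.84 in CC-IVM), and of the 5 leukocyte markers, 3 were called higher and none lower (-2.65 to -1.03 and -0.24 to 1.02). The part of these cells in the *IHH* difference was not tested. The 4 CC-IVM arrays shared a slide that held no CC array, so maturation and slide cannot be told apart.

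**Figure D4:**
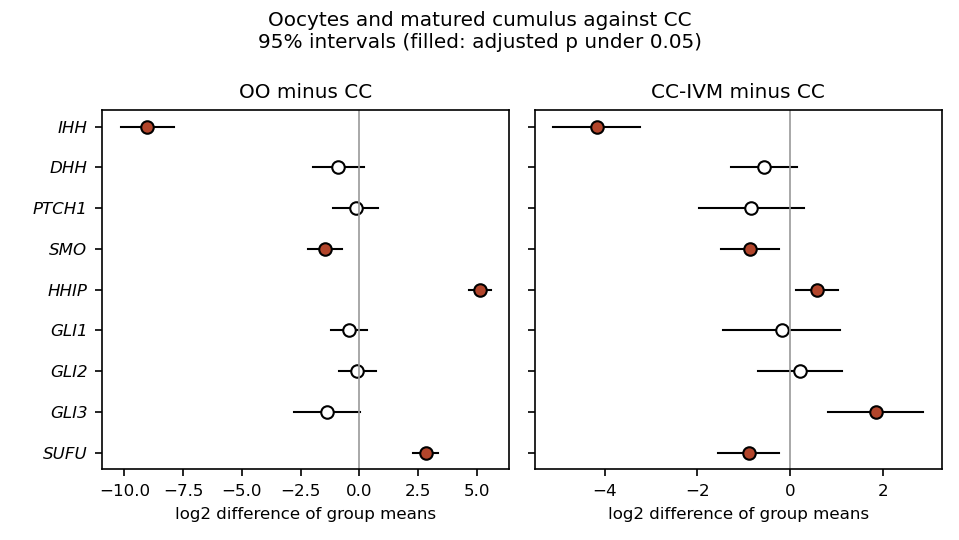
Differences of group means of the 9 Hedgehog genes for OO minus CC and CC-IVM minus CC, as log2 values on the horizontal axis with 95% confidence intervals. Filled points had an adjusted p under 0.05. *IHH* lies at -9.03 in the oocyte and at -4.18 after maturation, and *HHIP* and *SUFU* lie at 5.14 and 2.83 in the oocyte.

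Of the 9 genes, 5 were called in CC-IVM minus CC, 2 higher and 3 lower, where 45.8% of all genes were called, 30.3% higher and 15.5% lower. Of all calls, 66.1% were higher, and this share was 83.4% with normexp and 43.2% with quantile normalization. The count of 5 rests partly on signals near background. *HHIP*, with 0.58 (adjusted p = 0.040), was above background on none of the 8 arrays, so no fold is given. *SMO*, with -0.86 (adjusted p = 0.030), was above background on 1 CC-IVM array, and *SUFU*, with -0.90 (adjusted p = 0.033), on 3. Without single arrays, *HHIP* was called only in the fit without CC-IVM replicate 3, *SMO* without replicate 1 of either group, and *SUFU* without CC replicate 2 or CC-IVM replicates 1 or 3 (ranges 0.50 to 0.72, -1.06 to -0.73, and -1.05 to -0.64). With normexp the difference of *SMO* turned to 0.37 (adjusted p = 0.011) and that of *SUFU* to 0.29.

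*GLI3* was called higher after maturation, at -5.81, -4.53, -4.14, and -4.56 in CC-IVM against -7.10, -6.90, -7.05, and -5.37 in CC. The difference was 1.85 (SE 0.46, adjusted p = 0.012), it was called without any 1 array, and it was lost with quantile normalization and with the brightest probe. CC replicate 4, the only CC array with *GLI3* above background, lay inside the CC-IVM range. The other CC values lay below the lowest detectable signal of their arrays (-5.73 to -5.26), so the size of the difference is uncertain. In the limma fit over all probes, probe A gave 1.63 (adjusted p = 0.11) and probe B 2.06 (adjusted p = 7.2e-04). *GLI1* was -6.43, -3.37, -5.63, and -4.52 in CC-IVM, above background on 2 arrays and overlapping CC (-0.18, 95% interval from -1.45 to 1.08, adjusted p = 0.81). Probe A of *PTCH1* was lower after maturation (-1.68, adjusted p = 0.0030) and above background on 1 CC-IVM array, whereas the gene level was not called (adjusted p = 0.20).

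Other genes of the pathway, in 5 lists by role, showed calls in both directions. Of the 42 genes listed, 41 were on the array, and in TH minus GC 8 were called higher, 9 lower, and 24 not, where 26.3% of all genes were called, 11.8% higher and 14.5% lower. Their median was -0.08 against -0.22 over all genes. Of 4 genes of reception 1 was higher in TH and none lower, and of 6 of ligand release 1 was higher and 2 lower. *SCUBE2*, whose product helps to release lipid-bearing ligands, was -0.02 in TH and -4.70 in GC (difference 4.67, adjusted p = 7.6e-06), while its relative *SCUBE3* went the opposite way (-3.63, adjusted p = 2.9e-05). *CDON*, a co-receptor, was above background on all TH arrays and on no GC or CC array, at least 2.35-fold higher than in GC. *DISP1*, which exports the ligands, was lower in TH than in GC (-0.58, adjusted p = 0.032), and its call was lost without any 1 of TH replicates 1, 2, and 4 and GC replicates 1, 2, and 3 (-0.69 to -0.46).

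**Figure D5:**
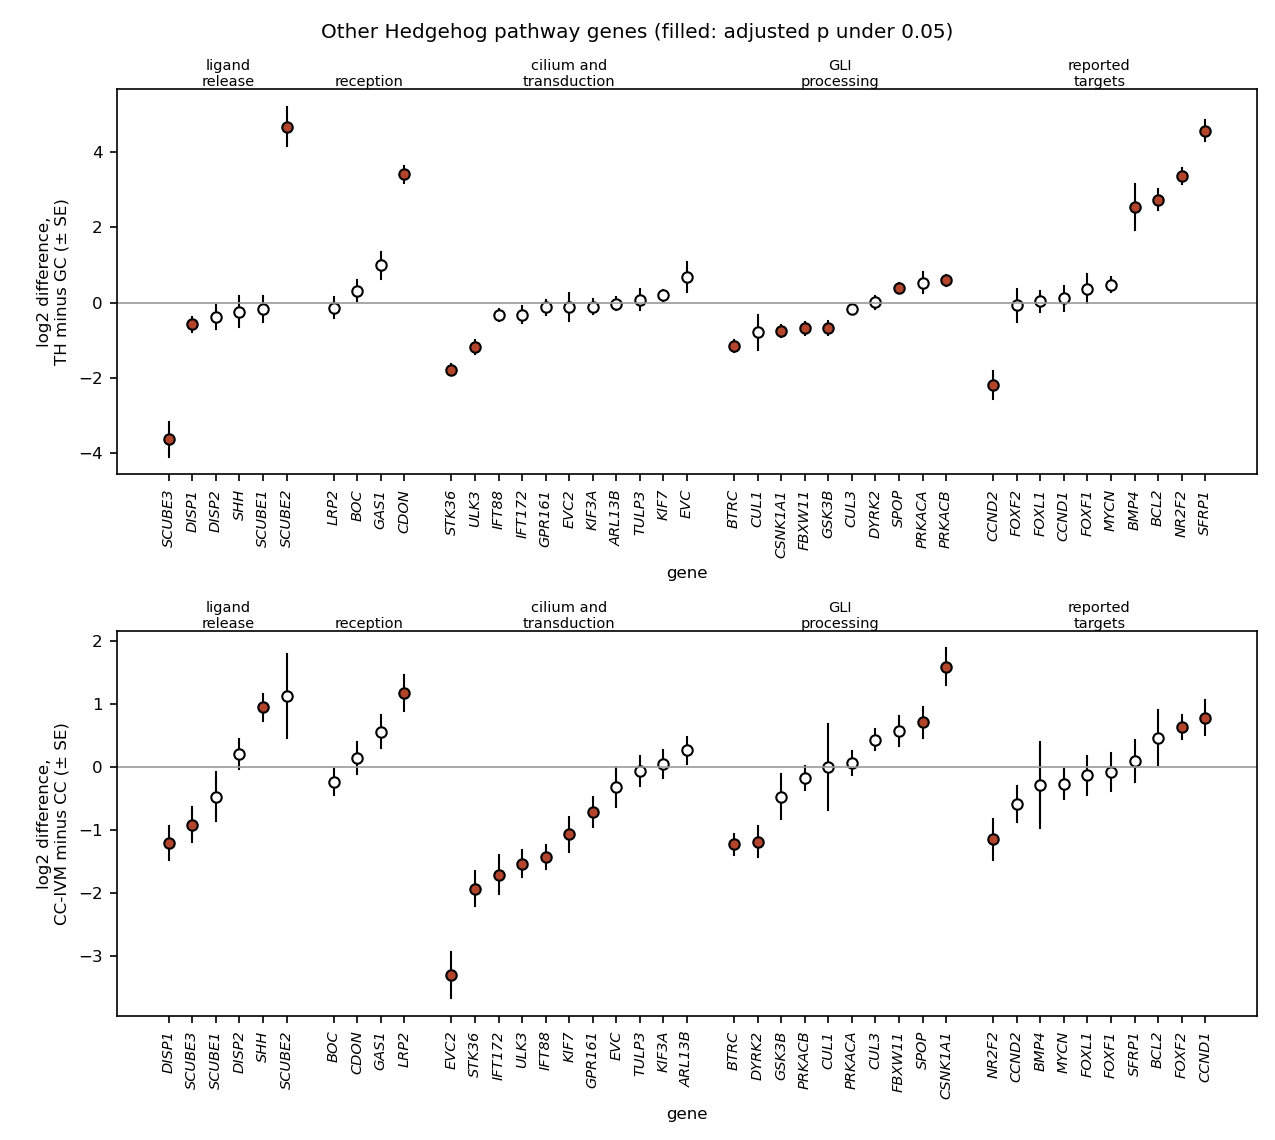
Other Hedgehog pathway genes in 5 lists by role, with the log2 difference (± SE) for TH minus GC in the upper panel and for CC-IVM minus CC in the lower panel, sorted within each list. Filled points had an adjusted p under 0.05. In the upper panel *SCUBE2* lies at 4.67 and *SCUBE3* at -3.63, and in the lower panel 7 of the 11 cilium and transduction genes are filled and below 0.

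*SHH*, the remaining ligand, was above background on no array of any group. Among 10 genes reported as Hedgehog targets in other tissues, 4 were called higher in TH than in GC and 1 lower. *SFRP1*, a secreted Wnt antagonist, was 4.57 higher, the nuclear receptor *NR2F2* 3.37 higher, and the survival gene *BCL2* 2.74 higher, while the cyclin *CCND2* was lower (-2.20). These genes answer to other signals as well, and the remaining 5 of the list were not called. Of 11 genes of the cilium and signal transduction, 2 were called, *STK36* (-1.78) and *ULK3* (-1.17), both kinases of the GLI pathway and both lower in TH. Of 10 genes of GLI processing, *PRKACB* (0.59) and *SPOP* (0.40) were higher in TH and 4 were lower, among them *BTRC* at -1.15, *CSNK1A1* at -0.76, and *FBXW11* at -0.69. The call of *SPOP* was lost without TH replicates 1 or 3 or GC replicates 3 or 4 (0.37 to 0.44).

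In CC-IVM minus CC, 6 of the 41 were called higher, 12 lower, and 23 not, where 45.8% of all genes were called, 30.3% higher and 15.5% lower. Their median was -0.13 against 0.37 over all genes. The lower calls were mostly of the cilium and transduction list, where 7 of 11 were lower and none higher. *EVC2*, which acts with SMO at the ciliary base, fell by 3.30 (adjusted p = 1.5e-04), *STK36* fell by 1.93, and *IFT172*, of ciliary transport, fell by 1.71. *DISP1* fell by 1.21. *SCUBE3* and *NR2F2* were called at -0.91 and -1.14, but not without any 1 of several arrays (CC replicates 1, 3, and 4 and CC-IVM replicates 1 and 2 for *SCUBE3*, -1.17 to -0.73, and CC replicate 1 and CC-IVM replicate 4 for *NR2F2*, -1.44 to -0.87). *BTRC* fell by 1.23 and *DYRK2*, a kinase of GLI turnover, fell by 1.18. *CSNK1A1* was 1.59 higher. *CCND1*, at 0.78, kept its call only without CC-IVM replicates 1 or 4 (0.56 to 0.94 over the 8 arrays), and *SHH*, *LRP2*, and *FOXF2*, also called higher, were above background on no array of either group. With normexp, 19 of the 41 were higher and 12 lower, and 2 of the cilium and transduction list were higher and 6 lower.

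The genes whose pattern was most like each member were ranked by Pearson r of the levels over the 20 arrays, among 14322 genes with a symbol and a signal above background in some group. The points share their groups, slides, and scaling, so r is a description. For *IHH* they were *SLC30A2* (r = 0.978), *DNAH17* (0.972), and *DDR1* (0.964). For *GLI1* they were *PEAR1* (0.982), *SMIM5* (0.968), and *C7* (0.964), all at their highest in TH. For *HHIP* they were *C1QL3* and *SHE* (both 0.989) and *LRRC34* (0.988), though *HHIP* itself was not above background on 12 of the 20 arrays, and for *SUFU* they were *DISP1* (0.972), *BORA* (0.971), and *CEP44* (0.967). The nearest genes were less close for *SMO* (*LRRC27*, *TTC25*, and *ALPK1*, 0.906 to 0.910), *GLI3* (*GPR77*, *EPB41L1*, and *TMEM88*, 0.892 to 0.902), and *PTCH1* (*ROBO2*, *CSGALNACT1*, and *MBD5*, 0.799 to 0.813).

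Among the members themselves, the strongest correlations over the 20 arrays were negative, of *IHH* with *HHIP* (r = -0.91) and of *GLI3* with *SUFU* (r = -0.72). *PTCH1* was closest to *GLI1* (r = 0.70), although the probe sequences of *PTCH1* gave only r = 0.18 with each other. *IHH* and *GLI1* gave r = -0.45.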

How the data were processed

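Total RNA of 20 samples was labelled with Cy3 and hybridised to a customized bovine 60K array, 1 sample per array. The authors scanned the arrays with Agilent Feature Extraction 10.7.3.1, and per the file headers the deposited scanner files give an intensity for each spot (mean, median, local background, and the background-subtracted, detrended signal, not normalized between arrays) together with other marks of 0 or 1, set by the software, for background, saturation, and outliers. The deposited table of log2 values equalled log2 of the median signal minus the array's median, within 5.0e-09. Probe coordinates follow bosTau6 UMD 3.1.

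Control spots and outlier-marked spots (at most 23 per array) were left out. Of the 61325 probes, 50662 took the gene name in the files, 734 a RefSeq match by accession, and 9929 kept their transcript name. The processed signal was log2-transformed, each array was set to its 75th percentile, and the median over the spots of a gene was fitted in limma 3.58.1 (R 4.3.3; lmFit and eBayes), with TH, GC, CC, and OO in a fit of 16 arrays and CC-IVM with CC in a fit of 8. P-values are two-sided and adjusted by Benjamini-Hochberg over all 22551 genes or transcripts. Single probes were fitted over all probes. The number of arrays, 4 per group, limits the precision. The fit was also run on simulated log2 values with set differences and independent noise. These held no slide effect and no detection limit, so the run checks the code and not those features of the data. Tables and figures were made with Python 3.11.15, pandas 2.3.3, numpy 2.4.6, and matplotlib 3.10.9.

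Groups came from the sample labels. The members, the pathway lists, and the markers of theca, granulosa and cumulus, oocyte, endothelium, smooth muscle and pericytes, leukocytes, red cells, and Schwann cells were chosen with earlier results of these data known. One gene of the pathway lists is not reported here. All members were named. From each pathway list up to 3 genes called in each direction without overlap between the groups were named, by size, and for each member called by the F-test the 3 genes with the highest Pearson r. The alternatives were other scalings and background corrections, the deposited table, other summaries of probes, dim genes left out, all 20 arrays in 1 fit, replicate number or slide as a block, single slides, intensity trend, array weights, the methods' analysis of variance, and leaving out each array.

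Same-numbered arrays were checked for shared deviations from their group means. For TH and GC all 4 same-number correlations exceeded 0.1 (0.124 to 0.373), so the numbers may pair these samples. Those of different numbers ran from -0.2877 to 0.1555, the highest being TH replicate 1 with GC replicate 2, so the ranges overlapped. The main fit held no replicate term, and the fits with replicate number as a block are given as alternatives. For TH and CC (-0.012 to 0.227), GC and CC (0.026 to 0.212), OO and CC (-0.138 to 0.073), and CC-IVM and CC (-0.185 to -0.018) the numbers were not taken to pair the samples.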

Additional observations from a re-analysis of the deposited data

Results flagged for a closer look

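In 8 of 45 sets of 4 arrays (9 genes in 5 groups), 1 array lay far from the other 3 by Dixon's test, which chance alone does in about 1 of 20 such sets. Of these, 5 concerned genes with signal above background on the array in question. *IHH* in GC was 3.76 in replicate 3 and 5.14 to 5.30 in the others. *PTCH1* in OO was -5.24 in replicate 3 and -4.79 to -4.73 in the others, and *GLI1* in OO was -5.42 in replicate 3 and -5.19 to -5.16 in the others. *HHIP* in TH was -3.95 in replicate 1 and -3.41 to -3.32 in the others. *GLI3* in CC was -5.37 in replicate 4, the one CC array with that gene above background, and -7.10 to -6.90 in the others. The remaining 3 lay below the detection limit, with *HHIP* at -6.19 in GC replicate 2 against -7.22 to -7.05, *GLI2* at -6.48 in TH replicate 3 against -7.33 to -7.20, and *SUFU* at -5.87 in CC-IVM replicate 2 against -4.88 to -4.81.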

How the results depend on the processing

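The differences of *IHH*, *GLI1*, and *HHIP* between TH and both GC and CC, of *IHH* and *SUFU* between OO and CC, and of *IHH* after maturation kept their direction and their call in every alternative run, but their sizes moved. The lowest and highest differences for TH minus GC were -6.49 and -5.42 for *IHH*, 3.38 and 5.28 for *GLI1*, and 0.58 and 3.70 for *HHIP*, and for OO minus CC they were 1.50 and 2.97 for *SUFU*. *GLI3* also moved, to 0.63 for TH minus CC and 0.64 for CC-IVM minus CC with the deposited table. The number of members called moved with the setting. TH against GC gave 5 with quantile normalization and 5 with probes above background only, in place of 3. TH against CC gave 3 with normexp and 3 within the second slide, in place of 5, and 6 with quantile normalization, the deposited table, probes above background only, or array weights. GC against CC gave 1 with normexp, the deposited table, the mean over probes, the brightest probe, or all 20 arrays in 1 fit, in place of 2, and 0 within the first slide and 0 within the second slide (limma, with 3 and 1 at an unadjusted p under 0.05). OO against CC gave 9 with normexp and 7 with the deposited table, in place of 4. CC-IVM against CC gave 2 with quantile normalization and 3 with the brightest probe, with all 20 arrays, or with the replicate block, in place of 5, and 7 with normexp and 6 with slide as a block. With the replicate block, TH against GC gave 4, *GLI3* being gained (adjusted p = 0.033), TH against CC 4, and OO against CC 6. Leaving out 1 array gave 6 to 7 members over the 4 cell types, 3 to 4 for TH against GC, 4 to 5 for TH against CC, 1 to 2 for GC against CC, 4 to 5 for OO against CC, and 2 to 4 for CC-IVM against CC. For OO against TH and OO against GC, whose alternatives were chosen after seeing the data, it gave 6 to 6 and 5 to 7. After maturation, normexp turned *SMO* to 0.37, *SUFU* to 0.29, and *GLI1* to 0.51, and the value of *GLI1* was also above 0 with the deposited table (0.21) and without CC-IVM replicate 1 (0.30) or 3 (0.03), ranging from -0.72 over the fits without 1 array. Of 29 differences that were not called and are not printed, 21 changed sign in some alternative and 5 of 884 values were called with the other sign, for *DHH* and *GLI2*. The cause was not tested. The share of calls that were higher moved from 45.0% to 55.9% for TH minus GC, from 45.3% to 60.7% for TH minus CC, and from 46.6% to 58.3% for GC minus CC when the percentile was taken over probes above background on all arrays. It was 26.8% for GC minus CC with the deposited table, and for OO minus CC it moved from 49.8% to 26.2% with normexp and 36.8% with the deposited table. The counts of pathway genes under the alternatives were also computed after seeing the data. Slide as a block moved no count of members by over 1.5 times, and the CC-IVM slide could be fitted only as a random block. *GLI2* in TH and GC and *HHIP* in GC and CC were not above background on any array, so their order there is not given.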
